A study of Mus musculus with 7 samples.

Results

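Rcan1 and 9 further genes of the calcineurin-NFAT pathway were examined in mouse liver after treatment with a synthetic transfer RNA fragment. They were found by gene symbol, as 10 of the 21706 genes in the expression table, and were Rcan1, Rcan2, Rcan3, Ppp3ca, Ppp3cb, Ppp3r1, Nfatc1, Nfatc2, Nfatc3 and Nfat5. The selection rested on measured values. Rcan1 had the smallest p-value of all tested genes in an earlier analysis of these same libraries, and the other members were added because they belong to its pathway. All differences of the members between the treatment groups are therefore descriptions, and no test of them is read as support.

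Hepatic mRNA was sequenced from 7 male wild-type mice of the inbred strain C57BL/6, aged 8 weeks at the start. For 2 weeks, 4 of them received intraperitoneal injections of a control oligonucleotide (control oligo) and 3 received an oligonucleotide with the sequence of tsRNA-Glu-CTC, a small RNA cut from a glutamate transfer RNA (oligo-1). All 7 mice ate the same semisynthetic diet low in fat and cholesterol, and each library came from 1 mouse. The injections were systemic and the liver was sequenced as whole tissue, so the comparison does not separate cell types, and in such bulk samples fewer cells of a type and less RNA per cell cannot be told apart.

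Calcineurin is a phosphatase that is switched on by calcium and calmodulin. It consists of a catalytic subunit, encoded by Ppp3ca, Ppp3cb or Ppp3cc, and a calcium-binding regulatory subunit, encoded in most tissues by Ppp3r1. Active calcineurin removes phosphates from the transcription factors NFATc1 to NFATc4, which then enter the nucleus, and the drugs cyclosporin A and tacrolimus block this step in T lymphocytes. The regulators of calcineurin (Rcan1, Rcan2 and Rcan3) bind the catalytic subunit and inhibit it. Rcan1 has a distal promoter and an internal promoter, and the internal promoter is itself a known NFAT target, which closes a negative feedback loop. Nfat5 encodes a related factor that responds to osmotic stress without calcineurin. In hepatocytes, calcineurin also dephosphorylates Crtc2, the coactivator through which glucagon raises genes of glucose synthesis.

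Both RefSeq promoters of Rcan1 are shown because Rcan1 was the member with the largest difference between the groups. Rcan1 also has separate start sites, of which the internal one is the NFAT-responsive type. RefSeq lists 2 Rcan1 starts on the minus strand of chromosome 16 in GRCm38.p6, 66091 bases apart. The 250 bases before each start are printed 5′ to 3′. The GENCODE span of Rcan1 begins further upstream, at position 92470867, so an annotated start lies outside both printed windows. Capitals mark matches, on either strand, to the NFAT core GGAAA, to the AP-1 site TGACTCA and to the cyclic AMP response element TGACGTCA.
Rcan1 distal promoter, chr16:92466170-92466419, minus strand: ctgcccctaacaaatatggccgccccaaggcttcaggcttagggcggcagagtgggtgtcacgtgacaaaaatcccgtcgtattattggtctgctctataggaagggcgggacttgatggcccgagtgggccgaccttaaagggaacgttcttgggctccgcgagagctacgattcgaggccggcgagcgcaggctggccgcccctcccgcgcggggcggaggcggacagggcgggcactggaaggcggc
Rcan1 internal promoter, chr16:92400079-92400328, minus strand: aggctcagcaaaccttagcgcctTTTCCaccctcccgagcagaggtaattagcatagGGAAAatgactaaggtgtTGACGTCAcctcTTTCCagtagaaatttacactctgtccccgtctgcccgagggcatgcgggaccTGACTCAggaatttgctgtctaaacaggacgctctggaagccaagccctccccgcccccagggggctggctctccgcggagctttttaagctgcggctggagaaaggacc

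The distal window held none of the 3 motifs. The internal window held 3 copies of GGAAA, beginning 227, 193 and 163 bases before the start, with TGACGTCA at 175 bases and TGACTCA at 110 bases, and these matches did not overlap. Over all 32536 RefSeq promoter windows of this length, 55.7% held at least 1 copy of GGAAA and 6.41% held 3 or more. TGACTCA was found in 4.45% of these windows and TGACGTCA in 1.56%. Of the 10 members, 8 had a promoter window, and 8 of their 13 windows held GGAAA. The Ppp3cb window and an Nfatc2 window also held 3 copies, as many as the internal Rcan1 window. A match is only a run of letters, and the expression table has a single value for each gene, so the transcripts of the 2 Rcan1 starts cannot be told apart in these data.

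Expression was given as TPM, which divides a gene's estimated reads by its length and expresses the result as a share of the library. Such values keep no record of how many reads were sequenced, and the depth is unknown. Between 13046 and 16089 genes were above 0 in a library. Controls 1 and 4 stood apart from all other libraries. Over the tested genes their mutual correlation was 0.988, and that with the remaining 5 libraries was 0.928 to 0.947, whereas correlations among those 5 were 0.965 to 0.987. Of the tested genes, 51.5% had their 2 highest values in controls 1 and 4, and all 10 members did. For this reason the differences of the tested members are given with all 7 libraries, after rescaling the libraries with a trimmed mean of ratios (TMM-type scaling), and without controls 1 and 4. The values by library show the 2 high controls for each gene.

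**Figure D1:**
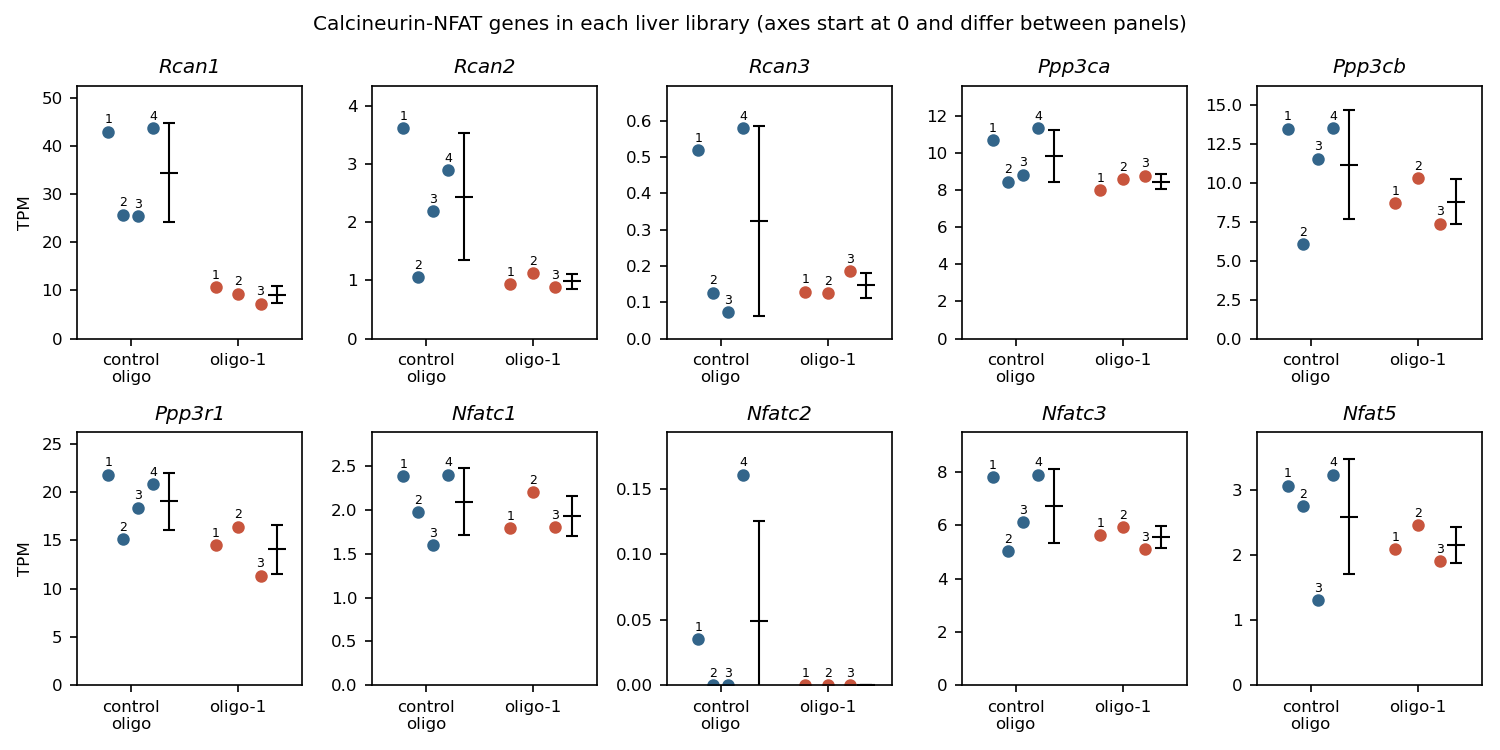
TPM of each of the 10 members (vertical axes, all starting at 0) in the 4 control oligo libraries (blue) and the 3 oligo-1 libraries (red), numbered by replicate, with the group mean and SD as bars. Rcan1 is the only member whose oligo-1 points all lie below every control point, and controls 1 and 4 are the 2 highest points in every panel.

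Rcan1 was lower in oligo-1 liver than in control liver. It measured 43.0, 25.7, 25.4 and 43.7 TPM in controls 1 to 4 and 10.7, 9.35 and 7.22 TPM in oligo-1 libraries 1 to 3. The groups did not overlap, and the highest oligo-1 value lay well under the lowest control, control 3. Mean Rcan1 was 34.5 ± 10.3 TPM (SD, n = 4) with the control oligo and 9.09 ± 1.76 TPM (SD, n = 3) after oligo-1, a ratio of means of 0.264. On the log2(TPM + 1) scale the fitted difference for Rcan1 was -1.78 (SE 0.26), against a median of -0.16 over all tested genes. It was -1.58 (SE 0.15) after TMM-type scaling, which brought the median of all genes to 0.02, and -1.41 (SE 0.21) without controls 1 and 4. Every oligo-1 library was also below controls 2 and 3 alone, which were nearly equal to each other for this gene. The Rcan1 gene spans chr16:92391953-92470867 on the minus strand in mm10, with 7 annotated transcripts of which 5 are coding. This span overlaps that of the antisense gene Gm46555, and whether their transcripts share bases was not examined. Reads from any shared bases could not be told apart without strand, which the sources used here do not give.

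Rcan2 and Rcan3, the other genes of the family, were far less abundant. Rcan2, at chr17:43801351-44039516, measured 3.62, 1.05, 2.19 and 2.90 TPM in the controls and 0.933, 1.13 and 0.885 TPM after oligo-1. These groups overlapped, since control 2 lay below oligo-1 library 2. The fitted log2 difference of Rcan2 was -0.74 (SE 0.29), and it was -0.59 (SE 0.20) after TMM-type scaling and -0.37 (SE 0.24) without controls 1 and 4. Rcan2 reached a TPM of 1 in all 4 controls but in only 1 oligo-1 library, so it passed the filter on low values mainly through the controls. Rcan3, at chr4:135412308-135433853, was too low to be tested, at 0.519, 0.127, 0.0725 and 0.580 TPM in the controls and 0.129, 0.126 and 0.186 TPM after oligo-1. Its values split into the high controls 1 and 4 and the remaining 5 libraries, in which the groups overlapped.

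Within the family, Rcan1 made up most of the TPM in every library. Its share of the summed TPM of Rcan1, Rcan2 and Rcan3 was 91.2%, 95.6%, 91.8% and 92.6% in the controls and 91.0%, 88.2% and 87.1% after oligo-1. All 3 oligo-1 shares lay below all 4 control shares, although oligo-1 library 1 and control 1 were close. The mean share was 92.8 ± 1.95% (SD, n = 4) against 88.8 ± 2.01% (SD, n = 3), and Rcan1 thus remained the main family member after treatment.

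The genes of the calcineurin enzyme itself showed overlapping groups. Ppp3ca, the alpha catalytic subunit at chr3:136670124-136937727, measured 10.7, 8.45, 8.84 and 11.3 TPM in the controls and 7.99, 8.58 and 8.77 TPM after oligo-1. Its oligo-1 values were close to controls 2 and 3, and controls 1 and 4 were higher. The log2 difference of Ppp3ca was -0.19 (SE 0.19) with all libraries, 0.004 after TMM-type scaling and -0.03 without controls 1 and 4. Ppp3cb, the beta catalytic subunit at chr14:20499364-20546573, measured 13.5, 6.08, 11.6 and 13.5 TPM in the controls and 8.68, 10.3 and 7.38 TPM after oligo-1. Control 2 was the lowest of all 7 libraries for Ppp3cb, and the difference was -0.27 (SE 0.28), or -0.07 after TMM-type scaling, turning to 0.04 without controls 1 and 4. Ppp3cb also overlaps an antisense gene, 1810062O18Rik.

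Ppp3r1, the regulatory subunit at chr11:17159263-17200375, was the most abundant subunit gene. It measured 21.8, 15.1, 18.4 and 20.9 TPM in the controls and 14.5, 16.4 and 11.4 TPM after oligo-1. The groups overlapped through control 2 and oligo-1 library 2. Its log2 difference of -0.41 (SE 0.21) was the third lowest of the tested members, and it was -0.21 (SE 0.13) after TMM-type scaling and -0.25 (SE 0.21) without controls 1 and 4. The span of Ppp3r1 overlaps that of the protein-coding gene Wdr92 on the same strand, so reads from any bases shared by their transcripts could belong to either gene.

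Ratios within a library do not depend on how the libraries are scaled. The summed TPM of the catalytic subunits Ppp3ca, Ppp3cb and Ppp3cc was 25.3, 15.1, 21.7 and 25.8 in the controls and 17.4, 19.9 and 17.1 after oligo-1. Per unit of this sum, Rcan1 stood at 1.70, 1.70, 1.17 and 1.69 in the controls and at 0.617, 0.469 and 0.421 after oligo-1. The mean ratio was 1.56 ± 0.26 (SD, n = 4) in controls and 0.502 ± 0.102 (SD, n = 3) after oligo-1, and the groups did not overlap. Rcan1 mRNA was thus above the catalytic subunit mRNAs in every control liver and below them in every oligo-1 liver. Controls 1, 2 and 4 had nearly the same ratio even though their Rcan1 TPM differed, and control 3 stood lower.

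The balance between the subunits showed no such split. Ppp3r1 per catalytic TPM was 0.863, 1.0, 0.847 and 0.808 in the controls and 0.834, 0.824 and 0.662 after oligo-1, with overlapping groups. Ppp3cb supplied 53.3%, 40.1%, 53.2% and 52.4% of the catalytic TPM in the controls and 50.0%, 51.7% and 43.0% after oligo-1, again with overlap. Ppp3cc, the gamma catalytic subunit and no member, was at 0.611 to 1.32 TPM in the controls and 0.683 to 1.03 TPM after oligo-1.

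**Figure D2:**
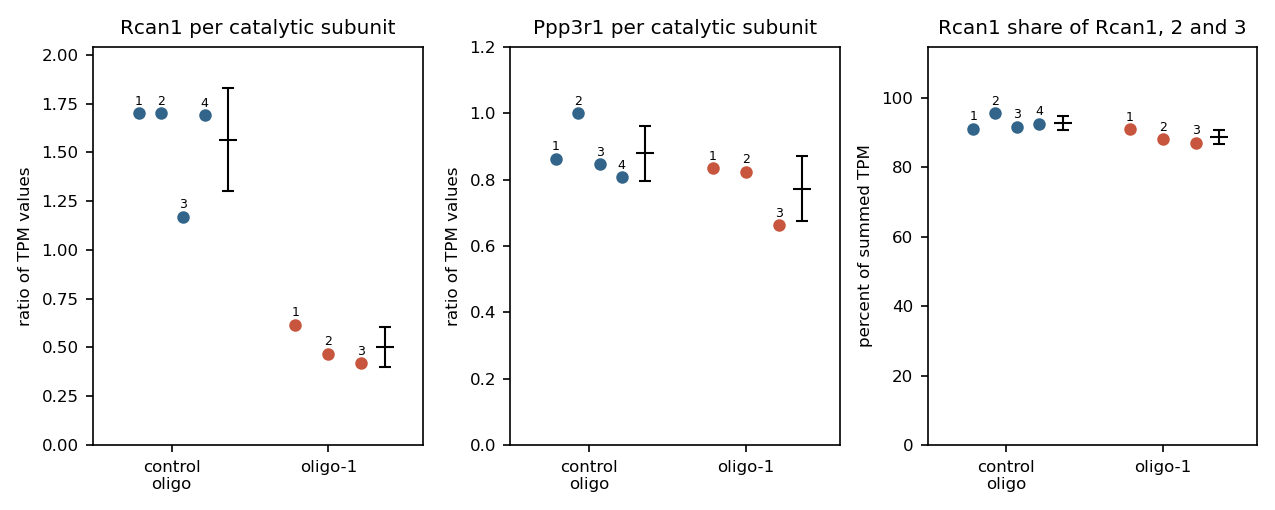
Rcan1 TPM per summed TPM of Ppp3ca, Ppp3cb and Ppp3cc (left), Ppp3r1 TPM per the same sum (middle) and Rcan1 as a percent of Rcan1, Rcan2 and Rcan3 TPM (right), for each library numbered by replicate (blue, control oligo; red, oligo-1), with group means and SD. Rcan1 per catalytic subunit lies between 1.17 and 1.70 in controls and between 0.421 and 0.617 after oligo-1, while Ppp3r1 per catalytic subunit overlaps.

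Among the NFAT factors, Nfatc3 was the most abundant in every library. Nfatc3, at chr8:106058840-106130537, measured 7.82, 5.04, 6.12 and 7.90 TPM in the controls and 5.64, 5.92 and 5.11 TPM after oligo-1. The oligo-1 values fell between those of controls 2 and 3, and the log2 difference was -0.22 (SE 0.21) with all libraries, -0.04 after TMM-type scaling and -0.002 without controls 1 and 4. Nfatc3 overlaps Esrp2 on the opposite strand. Nfatc1, at chr18:80606205-80713071, measured 2.39, 1.98, 1.6 and 2.41 TPM in the controls and 1.79, 2.20 and 1.80 TPM after oligo-1. Its difference of -0.07 (SE 0.21) became 0.07 after TMM-type scaling and also without controls 1 and 4. Nfatc2, the factor best known from T cells, at chr2:168476410-168601657, was listed at 0.0353 TPM in control 1, at 0.161 TPM in control 4 and at 0 in the other 5 libraries, and it was not tested.

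Nfat5, which needs no calcineurin, lies at chr8:107293470-107379517 and measured 3.06, 2.75, 1.30 and 3.23 TPM in the controls. After oligo-1 it measured 2.09, 2.45 and 1.90 TPM, all within the control range. Control 3 had the lowest Nfat5 value of the 7 libraries, and the log2 difference was -0.15 (SE 0.26) with all libraries, 0.00 after TMM-type scaling and 0.10 without controls 1 and 4. The summed TPM of the NFAT genes, Nfatc4 included, ranged from 9.35 to 13.8 in the controls and from 8.87 to 10.7 after oligo-1. Nfatc3 made up 51.1% to 65.5% of that sum in the controls and 55.4% to 59.2% after oligo-1.

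In order of mean TPM over the 7 libraries, Rcan1 came first at 23.6, followed by Ppp3r1 at 16.9, Ppp3cb at 10.1, Ppp3ca at 9.23 and Nfatc3 at 6.22. Nfat5 (2.40), Nfatc1 (2.03) and Rcan2 (1.82) formed a lower group, and Rcan3 (0.248) and Nfatc2 (0.028) were lowest. The first place held only in control liver, since Rcan1 exceeded Ppp3r1 in the 4 controls and in none of the oligo-1 libraries. Nfatc1 and Rcan2 also changed order with the group, since Rcan2 was the higher in 3 of the 4 controls and Nfatc1 in all 3 oligo-1 libraries. Ppp3cb exceeded Ppp3ca in 5 of 7 libraries, so their order was not the same throughout, and their difference was not tested. Ppp3r1 was above Ppp3cb, Ppp3ca above Nfatc3 and Nfatc3 above Nfat5 in 7 of 7 libraries.

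Of the 10 members, 8 passed the filter on low values (1 TPM or more in no fewer than 3 libraries), among 10455 genes tested with limma. No gene passed a Benjamini-Hochberg adjusted p of 0.05 in either direction (0% of tested genes higher and 0% lower), and the lowest adjusted p was 0.202. At an unadjusted p below 0.05, 444 genes (4.25%) were lower and 189 (1.81%) were higher after oligo-1. On that count 2 members were lower, Rcan1 and Rcan2, and 0 were higher. Every oligo-1 library was below every control for 4.98% of tested genes and above every control for 2% of them. Rcan1 was the only member with such a separation. Because the members were chosen on this contrast, nothing is read from these counts.

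Fitted differences were below 0 for 73.6% of all tested genes and for all 8 tested members. After TMM-type scaling 6 of the 8 lay below 0, and 5 did without controls 1 and 4. The median over the 8 tested members was -0.24 with all libraries, -0.05 after TMM-type scaling and -0.02 without controls 1 and 4. The same median over all tested genes was -0.16, 0.02 and 0.05. Without Rcan1, the 7 remaining members had medians of -0.22, -0.04 and -0.002.

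**Figure D3:**
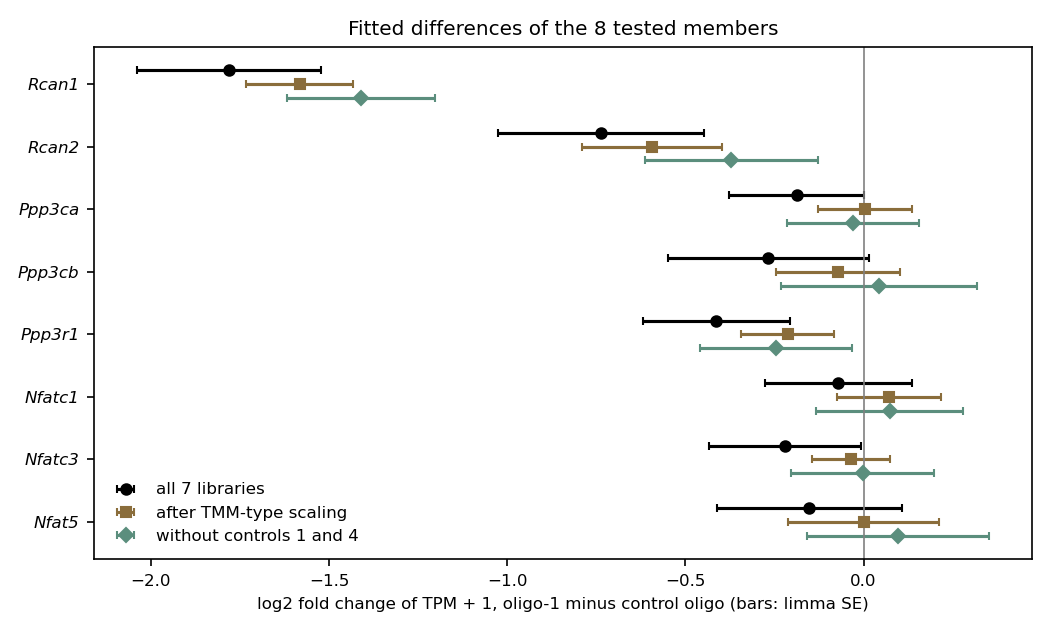
Fitted difference of oligo-1 minus control oligo on the log2(TPM + 1) scale (horizontal axis; bars, limma SE) for the 8 tested members, with all 7 libraries (black circles), after TMM-type scaling (brown squares) and without controls 1 and 4 (green diamonds). Rcan1 lies between -1.78 and -1.41 under all 3 and Rcan2 between -0.74 and -0.37. Under each of the 3, the other 6 members lie closer to 0 than Rcan2.

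The high values of controls 1 and 4 were not of the same size for each member. The mean of controls 1 and 4 over the mean of controls 2 and 3 was 1.27 for Ppp3ca and Ppp3r1, 1.34 for Nfatc1, 1.41 for Nfatc3, 1.53 for Ppp3cb, 1.55 for Nfat5, 1.70 for Rcan1, 2.01 for Rcan2 and 5.52 for Rcan3. Summed markers of Kupffer cells and macrophages, of stellate cells and fibroblasts, and of T and NK cells were also highest in controls 1 and 4. This did not hold for hepatocyte, B cell, sinusoidal endothelial, cholangiocyte or skeletal muscle markers. The T and NK cell sums were low and close, at 5.89 and 7.42 TPM in controls 1 and 4 against 5.40 TPM in oligo-1 library 3. Only 2 of these 8 T and NK markers passed the filter on low values. Sinusoidal endothelial markers summed to 108.6 and 87.9 TPM in controls 1 and 4, but to 101.3 and 94.75 TPM in oligo-1 libraries 1 and 2. Cholangiocyte markers were highest in oligo-1 library 3. The summed TPM of 9 Kupffer cell and macrophage markers was 642.2 and 832.9 in controls 1 and 4, 93.5 to 104 in controls 2 and 3, and 116 to 146 after oligo-1. For 9 stellate cell and fibroblast markers it was 367 and 339 in controls 1 and 4, 99.1 to 102 in controls 2 and 3, and 92.8 to 104 after oligo-1. None of the Kupffer or stellate markers was at 0 in all libraries, and the part of these cells in the member values was not tested.

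Hepatocyte markers dominated all libraries, as the liver label implies, with the 8 genes from Alb to Cps1 summing to 65510 to 78440 TPM in controls and 64810 to 77790 TPM after oligo-1. Most of this sum came from Alb and Apoa1, with control means of 43120 and 16790 TPM. By limma at an unadjusted p below 0.05, 3 of these 8 were lower and 1 was higher, against 4.25% and 1.81% of all tested genes. The median log2 difference of the 8 was -0.32, against -0.16 over all tested genes. Among both the sinusoidal endothelial and the stellate markers, 1 was lower and 0 were higher, but their median log2 differences were 0.16 and -0.73. The Kupffer cell and macrophage markers had a median of -1.03, with 0 lower and 0 higher at this threshold. Markers of T and NK cells, in which NFAT is best known, summed to 1.27 to 7.42 TPM in controls and 1.82 to 5.40 TPM after oligo-1, and Lck, Cd2 and Nkg7 were listed at 0 in some libraries. B cell markers summed to 0.890 to 4.2 TPM and 1.07 to 1.22 TPM. Sinusoidal endothelial markers summed to 69.4 to 109 TPM in controls and 86.3 to 101 TPM after oligo-1, and cholangiocyte markers to 22.3 to 52.5 and 23.0 to 54.5 TPM. Skeletal muscle markers stayed at or below 3.62 TPM, with Tnnt3 and Myh4 at 0 in all 7 libraries.

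The wider pathway was followed with 7 lists of 80 genes that are no members, and 53 of these passed the filter. By limma, 0 of the 53 passed the adjusted threshold. At an unadjusted p below 0.05, 2 were lower (Slc38a2 and Fosl2) and 0 were higher, or 3.77% and 0% of the list against 4.25% and 1.81% of all tested genes. Fosl2 reached 1 TPM in all 4 controls but in only 1 oligo-1 library, so it passed the filter mainly through the group in which it was high. In 5 of the 53 every oligo-1 library was below every control, which is 9.43% against 4.98%, and in none was every oligo-1 library above. The median log2 difference over the 53 was -0.20 with all libraries, -0.02 after TMM-type scaling and 0.01 without controls 1 and 4, close to the medians of all tested genes.

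Upstream of calcineurin, the genes of calcium entry and release gave no call in either direction among 9 of 13 tested, with a median of -0.17. This list holds the store sensor Stim1, the channel Orai1 and the inositol trisphosphate receptors. Mean Stim1 was 9.15 ± 1.36 TPM (SD, n = 4) with the control oligo and 8.05 ± 1.59 TPM (SD, n = 3) with oligo-1. Plcg2, a phospholipase of immune cells, was too low to be tested but did not overlap, with 0.249 to 1.13 TPM in controls and 0.0628 to 0.206 TPM after oligo-1. No share of separated genes was computed for genes under the filter. Calm2, which encodes the calcium sensor of calcineurin, measured 72.6 to 168 TPM in controls and 91.4 to 103 TPM after oligo-1.

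The list of other calcineurin subunits, partners and inhibitors also gave no call among 9 of 13 tested, with a median of -0.15. Cabin1, another calcineurin inhibitor, measured 2.38 to 4.87 TPM in controls and 2.37 to 3.10 TPM after oligo-1, with overlapping groups. Akap5, a scaffold that anchors calcineurin, ran the other way from Rcan1 at a level under the filter, with 0.279 to 0.349 TPM in controls and 0.457 to 0.512 TPM after oligo-1. It was the only listed gene for which every oligo-1 library was above every control. Akap5 was among 27 genes of the 7 lists that were not tested. Of these, only Akap5, Plcg2 and Egr2 had groups that did not overlap. Because the share of separated genes was taken over tested genes only, it gives no measure for such low values.

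Downstream, the NFAT kinases and scaffolds had a median of -0.21 over 14 of 16 tested genes, with 0 called. Gsk3b, a kinase whose phosphorylation of NFAT promotes its export from the nucleus, measured 5.73, 4.40, 4.76 and 4.60 TPM in controls and 3.61, 4.19 and 3.50 TPM after oligo-1. Its groups did not overlap, but the difference of -0.30 (SE 0.19) had an adjusted p of 0.775 by limma. It was -0.13 (SE 0.15) for Gsk3b after TMM-type scaling and -0.23 without controls 1 and 4. Of the other calcineurin substrates, 10 of 11 were tested with 0 called and a median of -0.33. Foxo1, a fasting-response factor of the liver, measured 8.35, 11.4, 8.21 and 8.64 TPM in controls and 7.06, 7.56 and 4.65 TPM after oligo-1. The log2 difference of Foxo1 was -0.47 (SE 0.23) with an adjusted p of 0.768 by limma, and it was -0.29 after TMM-type scaling and -0.55 without controls 1 and 4. Crtc2, the coactivator of gluconeogenic genes, varied widely within both groups, with 4.33 to 8.53 TPM in controls and 2.21 to 7.75 TPM after oligo-1.

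The osmotic targets of Nfat5 were tested in 6 of 7 cases, with 1 lower, 0 higher and a median of -0.39 that became 0.07 without controls 1 and 4. Slc38a2, an amino acid transporter, measured 63.5, 48.7, 50.6 and 53.6 TPM in controls and 43.0, 36.3 and 33.1 TPM after oligo-1. No oligo-1 value reached the lowest control, and the difference was -0.52 (SE 0.17) with an adjusted p of 0.756 by limma. After TMM-type scaling the difference of Slc38a2 was -0.31 and no longer passed an unadjusted p of 0.05, nor did it after median-of-ratios scaling, and it was -0.40 without controls 1 and 4. Hspa4l, a chaperone, did not overlap either, with 2.89 to 4.70 TPM in controls and 1.39 to 2.77 TPM after oligo-1, a difference of -0.53 (SE 0.25) with an adjusted p of 0.768 by limma, or -0.38 after TMM-type scaling and -0.49 without controls 1 and 4. Akr1b3, the aldose reductase that makes sorbitol, had the lowest fitted value of the list at -0.82 (SE 0.53), which became -0.62 after TMM-type scaling and 0.17 without controls 1 and 4.

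AP-1 factors bind DNA together with NFAT, and 5 of 7 of their genes were tested. Fosl2 measured 4.07, 1.61, 1.40 and 4.01 TPM in controls and 0.933, 0.946 and 1.21 TPM after oligo-1. All oligo-1 values of Fosl2 were below all controls, and the difference was -0.81 (SE 0.32) with an adjusted p of 0.768 by limma, or -0.66 after TMM-type scaling and -0.31 without controls 1 and 4, where it no longer passed an unadjusted p of 0.05. Junb stood on the other side, at 28.3, 17.0, 60.3 and 32.7 TPM in controls and 39.1, 74.2 and 65.9 TPM after oligo-1, and its groups overlapped through control 3. Its difference was 0.86 (SE 0.39) with an adjusted p of 0.768 by limma, or 1.07 after TMM-type scaling and 0.82 without controls 1 and 4. The AP-1 list had a median of -0.15 with all libraries and 0.32 without controls 1 and 4.

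None of the 13 NFAT-driven activation genes of lymphocytes passed the filter. Il3, Il4 and Il13 were listed at 0 in all 7 libraries, and no gene of this list exceeded 0.761 TPM in any library. That highest value was of Egr2, an early response factor, which measured 0.529, 0.761, 0.146 and 0.589 TPM in controls and 0.0211, 0 and 0.0179 TPM after oligo-1. The groups of Egr2 did not overlap, at levels too low for a test here, and no share of separated genes was computed for such levels.

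**Figure D4:**
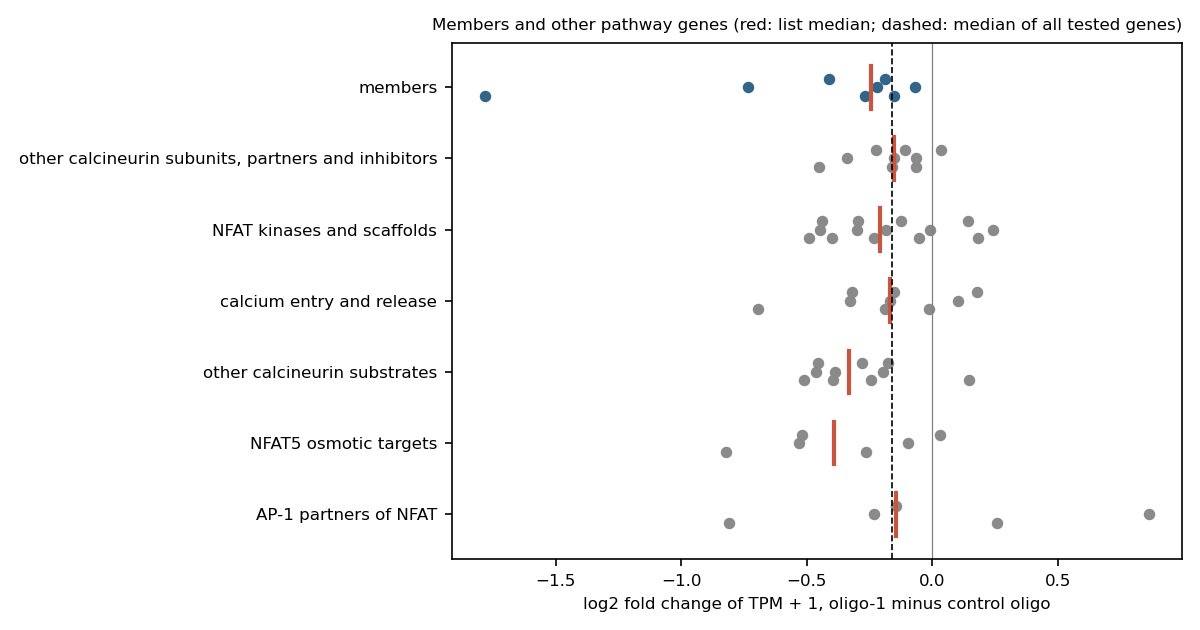
Fitted difference of oligo-1 minus control oligo on the log2(TPM + 1) scale (horizontal axis) for each tested gene of the members (blue) and of the 6 other lists with tested genes (grey), with the median of each list (red bar) and of all tested genes (dashed, -0.16). Rcan1 is the leftmost point at -1.78, and the list medians lie between -0.39 and -0.15.

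Several genes outside the pathway followed Rcan1 across the 7 libraries. Among 6538 genes with a mean of at least 5 TPM, the highest correlations with Rcan1 in log2(TPM + 1) were those of Cd2bp2 (0.973), Myd88 (0.969), Chchd2 (0.966), Abca1 (0.964) and Insig2 (0.962). Myd88 is an adaptor of Toll-like receptors, Abca1 exports cholesterol to lipoproteins, and Insig2 holds the sterol sensor complex in the endoplasmic reticulum. The lowest correlations were those of Tmem205 (-0.972), Msmo1 (-0.968), Cyp8b1 (-0.965), Lims2 (-0.963) and Depp1 (-0.962). Msmo1 is an enzyme of cholesterol synthesis and Cyp8b1 an enzyme of bile acid synthesis. These are descriptions over 7 libraries that share the 2 treatment groups, and they were picked from many genes. A correlation takes no account of the size of a change. Log2 differences were -0.26 for Cd2bp2, -0.51 for Myd88, -0.17 for Chchd2, -0.67 for Abca1 and -1.22 for Insig2, against -1.78 for Rcan1.

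Insig2, at 183, 110, 90.1 and 202 TPM in controls and 58.9, 66.2 and 52.6 TPM after oligo-1, had the same high controls 1 and 4 as Rcan1. Abca1, by contrast, was level across the controls at 18.5, 18.1, 16.4 and 18.1 TPM and lay at 11.1, 11.8 and 9.72 TPM after oligo-1. Msmo1 ran opposite to Rcan1, at 13.5, 13.9, 22.0 and 10.8 TPM in controls and 44.9, 44.9 and 81.9 TPM after oligo-1. Of the members, Rcan2 (0.864) and Ppp3r1 (0.861) correlated most with Rcan1, followed by Ppp3ca (0.758), Nfatc3 (0.738), Rcan3 (0.663), Nfatc2 (0.621), Ppp3cb (0.557), Nfatc1 (0.482) and Nfat5 (0.466). The genes outside the pathway named above were picked as the extremes, so the lower correlations of the members are not a comparison with them. Rcan2, Rcan3, Nfatc1, Nfatc2 and Nfat5, with means under 5 TPM, were not among the genes searched.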

How the data were processed

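Liver RNA of 7 mice was sequenced, and the library names gave each mouse its group and replicate number. The authors quantified protein-coding genes with kallisto, and the deposited values are TPM for 21706 genes, of which 4144 were at 0 in every library. Listed genes summed to 85.8% to 88.3% of the full TPM scale per library. The submitters' processing notes name the build mm10. The kallisto version, library strand and the way transcripts were combined into genes are not given in the sources used here. The authors used edgeR, which needs counts, so limma-trend (limma 3.58.1, R 4.3.3) was applied here to log2(TPM + 1), 2-sided, without covariates, to the 10455 genes that reached 1 TPM in 3 or more libraries. Benjamini-Hochberg adjustment covered all tested genes. This scale understates changes of low genes, and TPM values are shares of a library.

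Members, lists, motifs and the removal of controls 1 and 4 were chosen with earlier results of these data known. Named genes were all members, up to 3 genes a list with an unadjusted p below 0.05 or groups that did not overlap, in order of p, and the 5 genes with the highest and 5 with the lowest correlation with Rcan1. Stim1, Calm2, Cabin1, Crtc2, Akr1b3, Junb, Ppp3cc and Nfatc4 were named after their values were seen. Positions came from GENCODE M21 (97.2% of symbols matched) and promoters from RefSeq (GRCm38.p6). Alternatives were a pseudocount of 0.1, no filter, TMM-type and median-of-ratios scaling, leaving out libraries and a replicate block.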

Additional observations from a re-analysis of the deposited data

Results flagged for a closer look

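In control 3, the ratio of Rcan1 to the summed catalytic subunits was 1.17, against 1.69 to 1.70 in the other 3 controls, so this library lay apart from its group (gap over range 0.981, past Dixon's limit for 4 samples). In control 2, Ppp3cb made up 40.1% of the catalytic subunit TPM, against 52.4% to 53.3% in the other 3 controls (gap over range 0.932). These were 2 of 17 values examined in this way, and chance flags about 1 in 20. The cause was not tested. Even the lower ratio of control 3 was above the highest oligo-1 ratio of 0.617.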

How the results depend on the processing

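The Rcan1 difference stayed below 0 under all 13 alternatives, between -1.91 and -1.41, and moved most, to -1.41, without controls 1 and 4. Rcan2 ranged from -1.11 to -0.37 and Ppp3r1 from -0.52 to -0.21. Values reversed for Ppp3ca (0.004 after TMM-type scaling), Ppp3cb (0.044 without controls 1 and 4), Nfatc1 (0.072 after TMM-type scaling, 0.073 without controls 1 and 4 and 0.062 after median-of-ratios scaling) and Nfat5 (0.10 without controls 1 and 4). The cause was not tested. The members lower at an unadjusted p below 0.05, 2 with all libraries, numbered 1 (Rcan1) without controls 1 and 4, and 1 to 4 when single libraries were left out. They were 4 without control 2 (Ppp3cb and Ppp3r1 joined Rcan1 and Rcan2), and 1 without control 1, control 4 or any oligo-1 library. Wider pathway genes that were lower, 2 with all libraries, numbered 1 after TMM-type scaling (Slc38a2 lost), 1 without controls 1 and 4 (Fosl2 lost), 4 with no filter on low values (Plcg2 and Egr2 joined), and 0 to 10 without single libraries, with 10 without control 2 and 0 without oligo-1 library 3. Those that were higher, 0 with all libraries, numbered 2 after either scaling (Prkaca and Junb), 1 with no filter (Akap5) and 0 to 1 without single libraries. Over all genes, calls at an adjusted p of 0.05, 0 in each direction by limma, were 1 higher without controls 1 and 4, 0 to 19 higher and 0 to 10 lower without single libraries, both maxima without control 3. At an unadjusted p below 0.05 the split of lower to higher genes was 444 to 189, but 345 to 557 after TMM-type scaling, 374 to 523 after median-of-ratios scaling, 277 to 690 without controls 1 and 4 and 1505 to 212 without control 2. Replicate numbers did not pair the libraries, since same-numbered libraries deviated with correlations of 0.08, -0.02 and -0.12, and not every library correlated best with its own number. With the replicate block, 53 genes were called higher and 33 lower, 1 member was lower, and 1 wider pathway gene was lower and 1 higher. Depth is unknown, so values near 0 (Rcan3, Nfatc2, Egr2) have no counting error here.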
